A study of Rattus norvegicus with 20 samples.

Results

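The strands of miR-378, the microRNAs (miRNAs) listed as rno-miR-378 and rno-miR-378*, were 2 of the 350 rat miRNAs measured on each of 20 single-colour Agilent miRNA arrays, and they were taken by their names in the scanner output. The arrays covered soleus muscle and dorsal root ganglia (DRGs) of adult male Sprague-Dawley rats in 4 groups, with 10 arrays per tissue. Each tissue had 1 sham array and 3 arrays for each of the other groups. Denervation was a cut of the sciatic nerve, with a stretch taken out and the near stump tied off and moved up into thigh muscle, left for 6 months. In the entrapment group a loose silastic tube was left around the sciatic nerve for 6 months, and in the decompression group the tube was taken off after 6 months and the animals were followed for 3 months. The sham group had an operation without nerve injury. All surgery was to the same nerve on the right side, and the decompression animals carried the entrapment injury too. They were sampled later after the first operation than the denervation and entrapment animals. Neither the labels nor the methods give the sampling time of the sham arrays.

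Background on these molecules is as follows. A miRNA gene gives a hairpin whose arms are cut out as separate strands, and a strand loaded into an Argonaute protein pairs with messenger RNAs mainly through its seed, the bases from the second to the eighth. miR-378 is encoded within Ppargc1b, the gene of the coactivator PGC-1 beta, which promotes mitochondrial biogenesis and oxidative metabolism, and the miRNA is known from muscle, heart and fat, where it has been studied as a regulator of mitochondrial and lipid metabolism. Soleus is a slow, oxidative muscle, and DRGs hold the cell bodies of sensory neurons with their satellite glia.

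Both mature sequences, which are shown because the array reports the strands as separate miRNAs, were taken from RefSeq with the GRCr8 assembly and are written 5′ to 3′ with the seed in capitals. The older array names were matched to the current names rno-miR-378a-3p and rno-miR-378a-5p.
rno-miR-378: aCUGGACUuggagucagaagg
rno-miR-378*: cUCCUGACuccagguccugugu
The strand named rno-miR-378 has 21 bases and lies at chr18:57128925-57128945 on the minus strand. The star strand has 22 bases and lies at chr18:57128962-57128983, also on the minus strand. The hairpin gene Mir378 spans 65 bases, from 57128922 to 57128986, inside the span of Ppargc1b (57029264 to 57131466, minus strand) and 2480 bases from the start of that gene. The strands have different seeds, and among the 724 mature entries of the RefSeq table no entry with another name has either seed.

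The groups could be told apart by more than the injury. On 24 of 45 control features of the DRG arrays, and on 12 of 45 of the soleus arrays, the entrapment and decompression arrays did not overlap with the sham and denervation arrays, so a technical difference between these sets of arrays and the injuries cannot be told apart. The 75th percentile of the miRNA signal, used to scale the arrays, varied 6.20-fold over the soleus arrays and 1.62-fold over the DRG arrays. Detected miRNAs numbered 134 to 194 per soleus array and 183 to 233 per DRG array. The labels number the arrays within a group, and the methods name 3 rats per group, but the sham group has 1 array per tissue, so every comparison with sham rests on 1 sham animal or pool and borrows its spread from the other groups. In the authors' processed table, the DRG columns named entrapment held the values of the scanner files labelled decompression, and the reverse. The scanner labels are used here, and the entrapment and decompression results in DRGs are therefore open to an exchange of names.

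miR-378 was far higher in soleus than in DRGs. The soleus arrays had an unscaled signal of 834 to 6117 with a median of 2060, in the scanner's intensity units. The DRG arrays had a signal of 24.4 to 63.9 with a median of 32.0. All 20 arrays called this miRNA detected, and the tissues did not overlap, with the lowest soleus array 13.0-fold above the highest DRG array. After the arrays were made equal in the 75th percentile of 102 miRNAs, those called detected everywhere, that gap was 16.0-fold.

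In the fit of all 20 arrays, soleus exceeded DRGs by 5.35 on the log2 scale (SE 0.18, 95% interval 4.96 to 5.74), which is 40.7-fold (limma, adjusted p = 4.30e-13). By group the log2 difference was 5.46 in sham, 5.37 after denervation, 5.14 after entrapment and 5.41 after decompression. The exact permutation test, which exchanged tissues within groups, gave p = 0.000125, the smallest that its 16000 arrangements allow. Of the 234 miRNAs tested, 18.8% passed as higher in soleus.

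The star strand was detected on 10 of 10 soleus arrays and on 0 of 10 DRG arrays. Its soleus signal was 91.1 to 768 with a median of 335, and the scanner's own error was 7.14 to 7.62% of it. In DRGs the background-subtracted signal ran from -3.65 to 1.01 and was below 0 on 8 arrays. Only an approximate bound could therefore be set on the tissue difference. Against that bound, the star strand was 93.2-fold higher in soleus. That bound sets the mean log2 of its soleus arrays against a mean log2 over the DRG arrays. Each DRG array entered with the highest of its lowest scaled signal called detected, the star strand's own signal and the common floor of 2.34. The bound is not a strict lower limit. The lowest signals called detected were those of other miRNAs, and the scanner's error of the star strand in DRGs was 2.33 to 4.09 before scaling. The limma fit, in which DRG values stood at the common floor, gave an adjusted p of 2.00e-17. Those floor values had an SD of 0, so that this limma p-value measures no spread between DRG arrays. The exact permutation test again gave its smallest value, p = 0.000125. Detection on every soleus array and on no DRG array fixed that outcome in advance. The strand also entered the tests only through its soleus arrays, so neither p-value adds to the detection calls. No DRG comparison between groups was made for this strand. In the plot of both strands over the 20 arrays, the tissues stand apart for each strand.

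**Figure D1:**
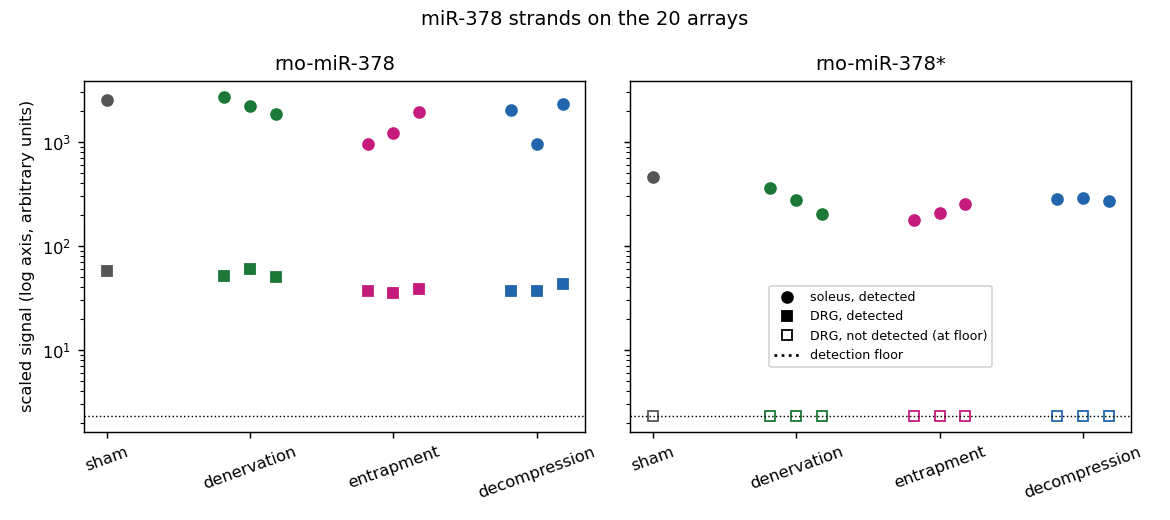
Scaled signal on a log axis (75th percentile of 102 miRNAs made equal between arrays) by group, with 1 point per array, circles for soleus and squares for DRGs. miR-378 lay between 958 and 2709 in soleus and between 35.1 and 59.9 in DRGs, and miR-378* was not detected in DRGs (open squares, drawn at the dotted detection floor of 2.34).

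The labelled tissues carried their defining miRNAs. The summed scaled signal of the skeletal muscle markers miR-1, miR-133a, miR-133b and miR-206 was 48281 to 300864 over the soleus arrays and 241 to 452 over the DRG arrays. In DRGs, 3 of these 4 markers were detected on all 10 arrays. The muscle sum moved with the tissue contrast in the same direction as miR-378, and the part of muscle RNA in the DRG level of miR-378 was not tested. The sensory neuron markers miR-183, miR-124 and miR-9 were not detected on any soleus array. The other 2 markers of that list, miR-96 and miR-182, were detected on some soleus arrays but not on all. All 5 markers were detected on every DRG array. Their summed scaled signal was 0 to 33.9 over the soleus arrays and 3386 to 4757 over the DRG arrays.

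In DRGs, miR-378 was lower after entrapment and after decompression than after sham or denervation. The unscaled signal was 59.1 on the sham array, and it was 63.9, 57.4 and 57.8 on the denervation arrays. It was 24.4, 26.6 and 32.5 on the entrapment arrays and 25.8, 31.5 and 31.4 on the decompression arrays. Every entrapment and decompression array lay below every sham and denervation array, both before and after scaling. The scanner's own error was 8.27 to 14.7% of each signal.

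Scaled to the 75th percentile of all 348 miRNAs with a single name in every file, miR-378 was 52.1 on the sham array and 49.4 ± 2.00 (SD, n = 3) after denervation. The entrapment arrays averaged 31.2 ± 1.36 (SD, n = 3) and the decompression arrays 33.0 ± 3.38 (SD, n = 3). Ordered by these means, the levels ran sham, denervation, decompression and entrapment, and the step between denervation and decompression was the largest. The sham array also lay above the highest denervation array, at 51.7, but the spread of sham is unknown with 1 array.

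**Figure D2:**
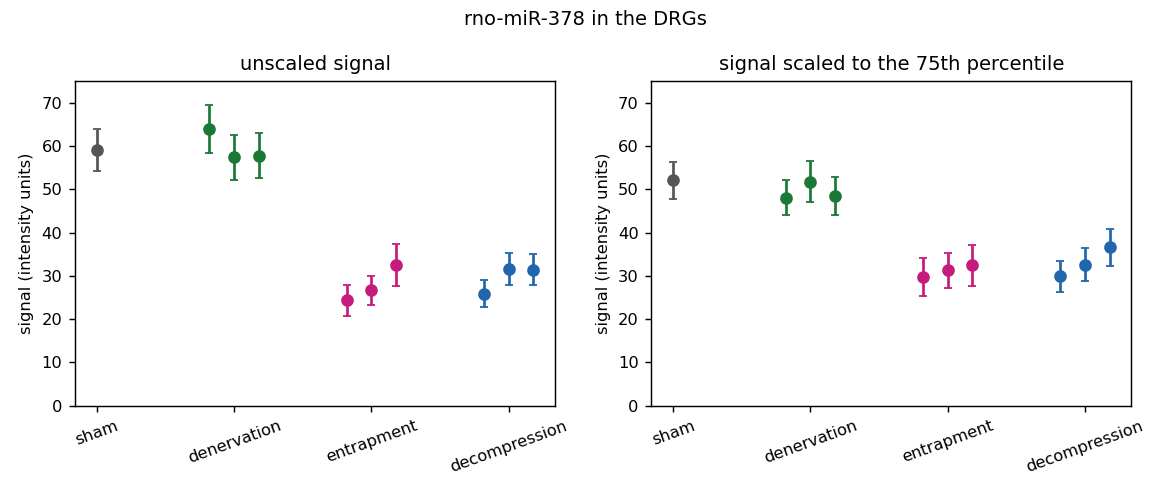
miR-378 in DRGs by group, 1 point per array, in the scanner's intensity units before scaling (left) and after scaling to the 75th percentile (right). Bars are the scanner's error of each signal, and the entrapment and decompression arrays (24.4 to 32.5 before scaling) lie below the sham and denervation arrays (57.4 to 63.9).

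Against sham, miR-378 in DRGs differed by -0.74 on the log2 scale after entrapment (SE 0.13, 95% interval -1.03 to -0.45), a level of 0.598 of sham (limma, adjusted p = 0.00344). After decompression the difference was -0.66 (SE 0.13, 95% interval -0.95 to -0.37), or 0.632 of sham (limma, adjusted p = 0.00729). Among the 219 miRNAs tested in DRGs, 17.4% passed as lower after entrapment and 16.4% as lower after decompression. After denervation the difference was -0.08 (SE 0.13, 95% interval -0.37 to 0.21), which did not pass (limma, adjusted p = 0.805), and 0.457% of all miRNAs passed in either direction there.

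The injuries were also compared with each other, without the single sham array. Entrapment was below denervation by a log2 difference of -0.67 (SE 0.09, limma, adjusted p = 0.000549), and decompression by -0.59 (SE 0.09, limma, adjusted p = 0.00114). As background, 32.9% of the tested miRNAs passed as lower in the entrapment comparison and 27.9% in the decompression comparison. Decompression and entrapment differed by 0.08 (95% interval -0.12 to 0.28, limma, adjusted p = 1). Among all miRNAs 0 of 219, or 0%, passed limma's adjusted threshold between these groups, while 9 had an unadjusted p under 0.05.

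The parting of the DRG arrays was common to many miRNAs. Of the 219 tested, 59 (26.9%) had every entrapment and decompression array below every sham and denervation array, miR-378 among them, and 16 had the reverse. Before scaling, 117 were lower in this way and 0 higher. The median signal of the undetected miRNAs was lower too, at -4.31 to -2.57 on the entrapment and decompression arrays and -1.47 to -0.09 on the sham and denervation arrays. With that median subtracted from each array, an alternative chosen after seeing the data, the miR-378 difference from sham was -0.64 after entrapment (limma, adjusted p = 0.00651) and -0.59 after decompression (limma, adjusted p = 0.00905). Of the 7 sums of cell type markers, 0 parted these arrays without overlap with the DRG arrays scaled by themselves. With the scaling over all 20 arrays, 1 did, the sensory neuron sum, at 3386 to 4076 on the sham and denervation arrays and 4102 to 4757 on the entrapment and decompression arrays. The glial sum of miR-338 and miR-219-5p was 8108 on the sham array and 9973 to 12654 on the injury arrays, and the red blood cell sum of miR-451 and miR-144 was 3049 on the sham array, 697 to 1573 after denervation, 887 to 2917 after entrapment and 1434 to 4313 after decompression. Their part in the values of miR-378 was not tested.

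The DRG differences from sham after entrapment and decompression kept their direction and passed limma's threshold under 5 of 6 ways of scaling the arrays, and they turned to 0.10 after entrapment and 0.19 after decompression when each array was set to its median. That scaling raised the median of all tested miRNAs to 0.73 in both comparisons. Relative to the median of all tested miRNAs, miR-378 was at -0.63 after entrapment and -0.53 after decompression. A scaling by a constant per array moves miR-378 and that median alike, so that 4 of the 6 scalings had to give the same relative value here. Quantile scaling gave -0.52 and -0.42, and loess -0.52 and -0.46. For denervation the relative value was -0.06, with -0.08 by quantile and -0.04 by loess.

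The study's methods select miRNAs by a 2-fold difference from sham in the specimens. miR-378 in DRGs reached 2-fold on 0 of 3 arrays of each injury, whereas 11% of all miRNAs met that rule as lower on each array after entrapment and 13.7% after decompression. At 1.5-fold on each array, miR-378 met the rule after entrapment, as did 21.5% of all miRNAs as lower.

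In soleus, neither strand passed limma's adjusted threshold against sham, and the values of miR-378 are given first. Its scaled signal was 2809 on the sham array, and it was 3012, 2497 and 2091 on the denervation arrays. After entrapment it was 1116, 1467 and 2232, and after decompression 2324, 1117 and 2670. Denervation 1 lay above sham, and the other injury arrays lay below it, with entrapment 1 and decompression 2 the lowest. The injury groups overlapped one another.

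After scaling, the star strand was lower than sham on all 9 injury arrays. Its scaled signal was 512 on the sham array and 404, 313 and 228 on the denervation arrays. After entrapment it was 209, 249 and 295, and after decompression 323, 341 and 312. The decompression arrays were the closest to each other, at 325 ± 14.7 (SD, n = 3), and lay within the range of the denervation arrays, while all entrapment arrays lay below all decompression arrays. Before scaling, the entrapment signals, 210 to 381, overlapped the decompression signals, 315 to 336. The unscaled sham signal was 202, below every injury array but denervation 3, at 91.1. How many other miRNAs had such patterns was not counted.

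**Figure D3:**
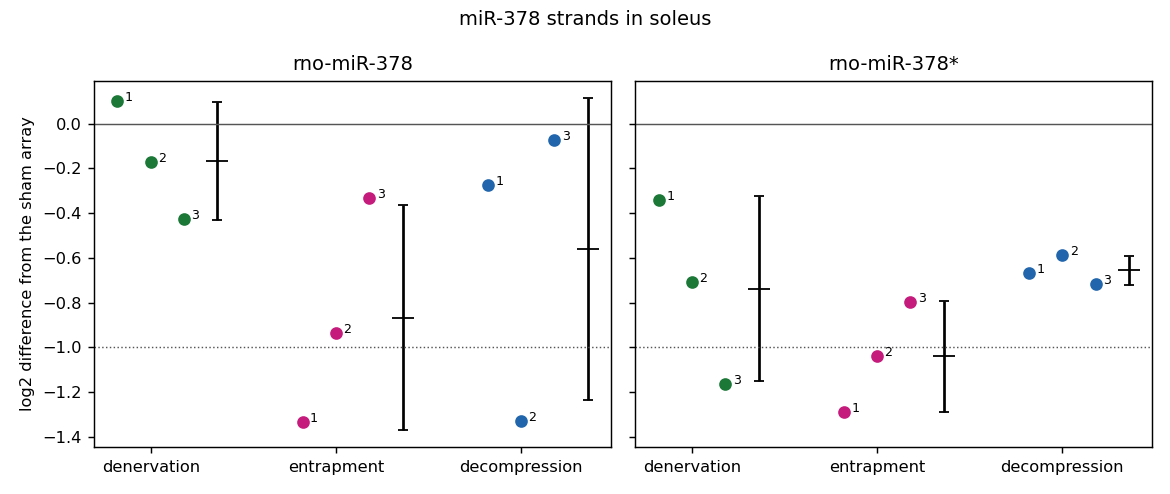
Log2 difference of each soleus injury array from the sham array after scaling, numbered by replicate, with the mean and SD of each group (n = 3) in black. All 9 arrays lie below 0 for miR-378*, and 8 of 9 do for miR-378, with the dotted line at a 2-fold lower level.

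The limma differences from sham did not pass the threshold for either strand. For miR-378 they were -0.17 after denervation (SE 0.56, adjusted p = 0.847), -0.87 after entrapment (SE 0.56, adjusted p = 0.276) and -0.56 after decompression (SE 0.56, adjusted p = 0.479). For miR-378* they were -0.74 (SE 0.39, adjusted p = 0.190), -1.04 (SE 0.39, adjusted p = 0.0793) and -0.66 (SE 0.39, adjusted p = 0.250) in the same order by limma. The entrapment difference of the star strand had an unadjusted limma p of 0.0252 and a 95% interval of -1.92 to -0.16. Of the 173 miRNAs tested in soleus, 26% passed in either direction after denervation, 29.5% after entrapment and 31.8% after decompression, so these were comparisons in which other miRNAs were called.

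On the scaled scanner signals used here, neither strand met the 2-fold rule on each array in soleus. The star strand reached 2-fold below sham on 2 of 3 entrapment arrays and 1 of 3 denervation arrays, and miR-378 on 1 of 3 arrays after entrapment and after decompression. Across all tested miRNAs, 18.5% met the rule as lower after denervation and 27.2% after entrapment, and 27.2% did after decompression. At 1.5-fold on each array the star strand met it after entrapment, as did 35.3% of all miRNAs as lower, and after decompression, as did 34.1%.

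Between the injuries, neither strand passed in soleus. Entrapment minus denervation was -0.70 for miR-378 (95% interval -1.59 to 0.19, limma, adjusted p = 0.310) and -0.30 for miR-378* (95% interval -0.92 to 0.32, limma, adjusted p = 0.580), with 11.6% of all miRNAs called. Decompression minus denervation was -0.39 (95% interval -1.29 to 0.50, limma, adjusted p = 0.503) and 0.08 (95% interval -0.54 to 0.70, limma, adjusted p = 0.840), with 13.9% called. Decompression minus entrapment was 0.31 (95% interval -0.58 to 1.20) and 0.39 (95% interval -0.24 to 1.01), each with a limma adjusted p of 1. In that comparison 0% of the 173 miRNAs passed limma's adjusted threshold and 6 had an unadjusted p under 0.05.

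The soleus directions depended on how the arrays were scaled. The sham array was the dimmest, with a 75th percentile of 409 against 413 to 2539 on the injury arrays. Without scaling, the difference from sham became 1.32, 0.76 and 0.79 for miR-378 and 0.74, 0.59 and 0.70 for miR-378* after denervation, entrapment and decompression, while the median of all tested miRNAs moved to 1.32, 1.04 and 1.02. Relative to that median, the entrapment difference lay between -1.21 and -0.28 for miR-378 and between -1.42 and -0.45 for miR-378* over the 6 scalings. The denervation difference relative to the median lay between -0.19 and -0.00 for miR-378 and between -1.10 and -0.58 for miR-378*. After decompression it lay between -0.73 and -0.23 and between -0.77 and -0.32. With quantile scaling, the star strand passed limma after denervation (-1.01, adjusted p = 0.0253) and after entrapment (-1.15, adjusted p = 0.0183).

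**Figure D4:**
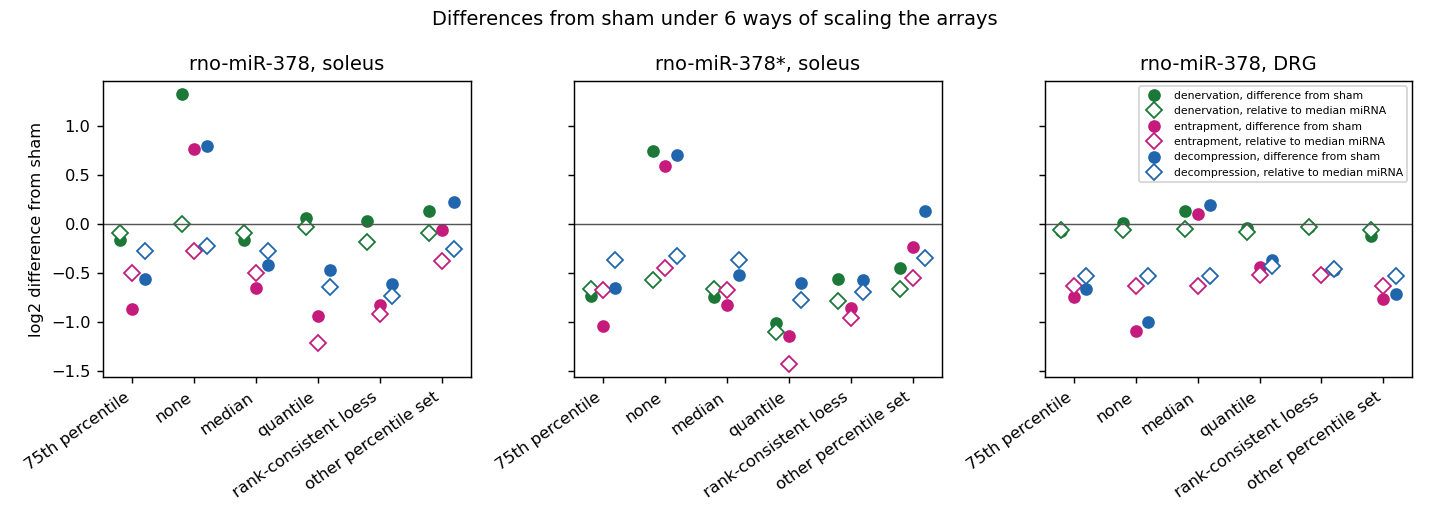
Log2 difference from sham under 6 ways of scaling the arrays, for each strand in soleus and for miR-378 in DRGs (filled circles), and the same relative to the median of all tested miRNAs (open diamonds), coloured by injury. The circles for DRG entrapment range from -1.10 to 0.10. Scalings by a constant per array cancel in the diamonds apart from values at the detection floor, so that in DRGs only quantile (-0.52) and loess (-0.52) could depart from -0.63.

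Of the 7 sums of cell type markers, 1 had all soleus injury arrays on one side of sham, the endothelial sum. The summed scaled signal of the endothelial markers was 362 on the sham array and 1044 to 1708 on the injury arrays, all of them above sham. The muscle sum was 196737 on the sham array, 95984 to 341728 after denervation, 56274 to 114611 after entrapment and 99071 to 102334 after decompression. The sum of the leukocyte markers, as 1 of the 7, parted the arrays, at 471 to 757 for sham and denervation and 311 to 448 for entrapment and decompression. As background, 25 of the 173 miRNAs tested in soleus (14.5%) parted these arrays without overlap, 22 of them lower after entrapment and decompression. Fewer muscle cells and less miR-378 per cell cannot be told apart in such tissue samples, and the part of these cell types in the soleus values was not tested.

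The ratio of the strands on one array is the same before and after scaling by a constant, though not by quantile or loess, and changes of the unscaled ratio were compared between groups. The ratio of miR-378 to miR-378* was 5.49 on the sham array, and 7.45, 7.97 and 9.15 on the denervation arrays. It was 5.33, 5.88 and 7.57 after entrapment, and 7.20, 3.28 and 8.56 after decompression. All 3 denervation arrays lay above sham, whereas the other injuries had arrays on both sides of it, and decompression 2 stood apart as the lowest.

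On the log2 scale the denervation ratio was 0.57 above sham (exact permutation p = 0.25, the smallest that 3 arrays against 1 allow). Entrapment was lower than denervation by -0.40 (exact permutation p = 0.2) and decompression by -0.48 (exact permutation p = 0.4), where 3 against 3 cannot go below 0.1. Decompression and entrapment differed by -0.08 (exact permutation p = 0.9), and this difference became 0.34 without decompression 2. With these numbers of arrays no ratio difference could pass 0.05. Quantile scaling moved the denervation difference from sham to 1.07, entrapment against denervation to -0.85 and decompression against denervation to -0.93, and loess moved these to 0.60, -0.56 and -0.64.

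**Figure D5:**
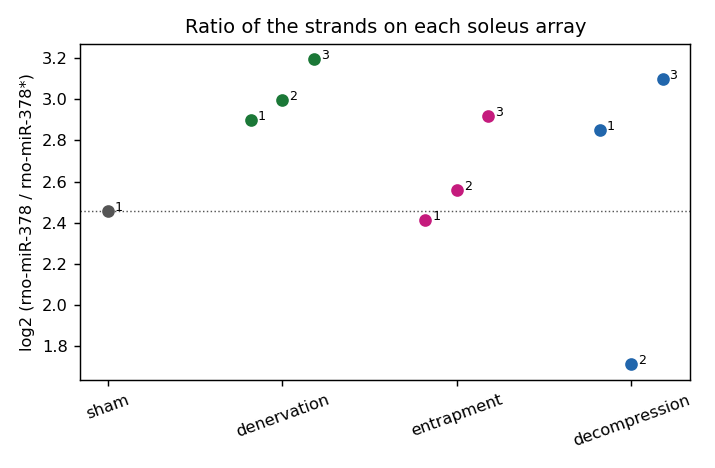
Log2 ratio of miR-378 to miR-378* on each soleus array, numbered by replicate, with the sham array as the dotted line. The 3 denervation arrays lie above sham, and decompression 2 lies lowest.

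The effect of injury on miR-378 was compared between the tissues in the fit of all 20 arrays. The soleus effect minus the DRG effect was -0.09 for denervation (SE 0.59, limma, adjusted p = 0.936), -0.32 for entrapment (SE 0.59, limma, adjusted p = 0.739) and -0.05 for decompression (SE 0.59, limma, adjusted p = 0.959). Of the 234 miRNAs tested, 23.5%, 27.4% and 27.8% passed in either direction in these comparisons. The 95% interval for entrapment ran from -1.59 to 0.95, so that the lower miR-378 in DRGs was not shown to be particular to DRGs.

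The miRNAs whose signals followed each strand most closely were found by the spread of their log2 ratio to it over the 10 arrays of a tissue, a description in which array brightness is shared. In DRGs the closest to miR-378 among 172 miRNAs were miR-181c (SD of the log2 ratio 0.0876), miR-664 (0.108), miR-125a-5p (0.123), miR-33 (0.131) and miR-30b-5p (0.151), with a median of 0.375 over all. In soleus the closest to miR-378 were miR-186 (0.313), miR-361 (0.387), miR-150 (0.406), miR-30a (0.425) and miR-20a (0.436), with a median of 0.711 over 107 miRNAs. The closest to miR-378* were miR-345-5p (0.154), miR-331 (0.198), miR-103 (0.208), miR-22 (0.219) and let-7i (0.295), with a median of 0.584. The strands were not each other's nearest. Their log2 ratio had an SD of 0.439, which placed miR-378* 7th for miR-378 and miR-378 27th for miR-378*.

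Other miRNAs known from lipid and glucose metabolism were set beside miR-378, as a list of 15 of which 12 were tested in each tissue. In DRGs, 2 of the 12 passed limma as higher and 2 as lower after entrapment, beside 5 higher and 38 lower of all 219, with a list median of 0.22 against -0.11 over all. miR-29a, which has been studied in insulin signalling, rose by 0.72 (limma, adjusted p = 0.00336) and miR-29b by 0.48 (limma, adjusted p = 0.0148). Over the 6 scalings these differences ran from 0.33 to 1.56 for miR-29a and from 0.00 to 1.33 for miR-29b. miR-33, which lies in the gene of the sterol regulator SREBP2 and restrains cholesterol export, differed by -0.50 (limma, adjusted p = 0.0424) and miR-335 by -0.46 (limma, adjusted p = 0.0330), and under median scaling they turned to 0.34 and 0.38. After decompression miR-29a, miR-29b and miR-29c passed as higher and 0 of the 12 as lower, beside 4 and 36 of all 219, with a list median of 0.20 against -0.13. Of the 6 scalings, miR-29a passed under 5, miR-29c under 4 and miR-29b under 3. After denervation 0 of the 12 passed either way. Against denervation, 3 passed as higher and 1 as lower after entrapment, beside 18 and 72 of all 219, and 4 and 1 after decompression, beside 19 and 61, with miR-33 the lower one in both. Over the 6 scalings miR-29a and miR-34a stayed higher in both comparisons. miR-29b ran from -0.11 to 0.98 after entrapment and from -0.07 to 1.02 after decompression. miR-33 ran from -1.10 to -0.01 and from -1.03 to 0.05 in the same order, and miR-103, called after decompression, from -0.18 to 0.91.

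In soleus, 2 of the 12 metabolic miRNAs passed as higher and 0 as lower after denervation, beside 19 and 26 of all 173, namely miR-335 (2.64, limma, adjusted p = 0.0197) and miR-223 (1.34, limma, adjusted p = 0.0490). miR-335 was detected on 4 of 10 soleus arrays, so its difference rests on the detection floor, and it passed as higher under 3 of 6 scalings after denervation and 2 of 6 after entrapment. miR-223 passed after denervation under 5 of 6, and it is also on the list of leukocyte markers. The other leukocyte markers, miR-142-3p, miR-142-5p and miR-150, differed by -1.04, -1.66 and 0.08 after denervation and did not pass limma. After entrapment miR-29b (1.75, limma, adjusted p = 0.0382) and miR-335 (2.11, limma, adjusted p = 0.0441) passed as higher, beside 17 miRNAs higher and 34 lower of all 173. After decompression miR-29b did (1.86, limma, adjusted p = 0.0283), beside 17 and 38. miR-29b passed under 6 of 6 scalings after entrapment and 5 of 6 after decompression. The list medians were -0.24, 0.28 and 0.40 after denervation, entrapment and decompression, beside -0.07, -0.37 and -0.29 over all miRNAs. Between injuries in soleus, 0 of the 12 passed for entrapment against denervation or decompression against entrapment, and 2 passed as higher and 2 as lower for decompression against denervation, beside 2 and 22 of all 173. Of those 4 calls, none passed under more than 3 of the 6 scalings.

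Of 6 miRNAs enriched in striated muscle, 5 were tested. miR-133b, a muscle miRNA that shares its seed with miR-133a, was lower in soleus after denervation (-1.99, limma, adjusted p = 0.0167), entrapment (-2.14, limma, adjusted p = 0.0119) and decompression (-1.75, limma, adjusted p = 0.0250), and miR-1 was higher after denervation (3.00, limma, adjusted p = 0.0358). Over the 6 scalings the miR-133b difference ran from -1.99 to -0.51 after denervation, from -2.14 to 0.00 after entrapment and from -1.75 to 0.00 after decompression, and miR-1 after denervation from 2.27 to 4.48. miR-133b passed as lower under 4 of the 6 scalings after denervation and under 2 after entrapment and after decompression. Of all 173 miRNAs, 45 passed either way after denervation, 51 after entrapment and 55 after decompression. In DRGs, miR-133a was lower after entrapment (-0.88, limma, adjusted p = 0.0204), with -1.24 to -0.04 over the 6 scalings, and no other miRNA of this list passed against sham. Of all 219, 5 passed as higher and 38 as lower there. Against denervation in DRGs, miR-133b was higher after entrapment (0.49, limma, adjusted p = 0.0244) and decompression (0.72, limma, adjusted p = 0.00409). miR-133a was lower after entrapment (-0.61, limma, adjusted p = 0.0144). In these comparisons 18 and 19 of all 219 passed as higher, and 72 and 61 as lower.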

How the data were processed

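The deposited scanner files, 1 per array, were made by the authors with Agilent Feature Extraction 9.5.3, per the labels and the study's methods, from a rat miRNA array scanned at a high and a low sensitivity. Per the file headers, the intensity deposited by the authors for each miRNA is a total gene signal, made by summing its probes after background subtraction, not normalized between arrays, with its error and a detection call. The deposited processed table holds a signal that equals the scanner value divided by a constant of each array for nearly all miRNAs, and it was used as an alternative. Of 350 miRNAs listed per array, 348 had 1 name in every file. The miRNA names are those of the array design.

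Arrays were divided by the 75th percentile of the signal (soleus over the 108 miRNAs detected on all 10 arrays, DRGs over all 348, both tissues over 102) and set back to the intensity scale. Signals under the detection floor (2.57 in soleus, 2.31 in DRGs, 2.34 over both) were set to it, and log2 values were taken. miRNAs detected on at least 3 arrays were tested (173 in soleus, 219 in DRGs, 234 over both) with limma 3.58.1 in R 4.3.3, by group only, two-sided, with Benjamini-Hochberg adjustment over all miRNAs tested and a threshold of 0.05. Residual degrees of freedom were 6 per tissue. Exact permutation tests were two-sided and run in Python 3.11.15. Changes between arrays can follow dye, hybridisation or scan, for which the scanner files gave no usable batch, and the number of arrays limits the precision. p-values measure the spread between arrays, to which groups with all values set to the detection floor add none. The methods and the labels differ on how the RNA was labelled, and this was not resolved. Scripts were tested on simulated data. Replicate numbers were checked as pairs and did not pair the arrays.

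The members, the lists of metabolic, muscle and cell type miRNAs, the comparisons and the tests were chosen with earlier results of these data known. Named beside the members were the 5 miRNAs with the smallest SD of the log2 ratio to each member, and from each list up to 4 members passing in most comparisons. Alternatives covered scaling, filter, floor, source of values, variance model, arrays in the fit, a replicate block and leaving out each injury array. The subtracted median of undetected signals and the processed values scaled to the percentile were chosen after seeing the data.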

Additional observations from a re-analysis of the deposited data

How the results depend on the processing

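Differences are log2, from limma unless named, and unless stated the cause of a change was not tested. Among 337 recomputed values of the comparisons, with arrays left out counted apart, 287 kept their direction and their side of the threshold. In DRGs, miR-378 after entrapment, after decompression and in both comparisons with denervation stayed past the threshold with each injury array left out (adjusted p up to 0.0243). Median scaling gave 0.13 after denervation, 0.10 after entrapment and 0.19 after decompression against sham, -0.024 for entrapment and 0.066 for decompression against denervation. With only the groups compared, decompression against sham kept -0.66 but lost the call (adjusted p = 0.0859), where fewer arrays were in the fit. Small differences turned sign in DRGs for denervation against sham without scaling (0.014) and with processed values (0.033), and for decompression against entrapment with processed values (-0.070) and with those scaled to the percentile (-0.080), where the names of these columns are exchanged. In soleus, for miR-378 and miR-378* in turn, differences from sham without scaling were 1.32 and 0.74 after denervation, 0.76 and 0.59 after entrapment, and 0.79 and 0.70 after decompression. With processed values they were 1.77 and 1.20, 1.32 and 1.15, and 0.16 and 0.065. Denervation against sham for miR-378 was 0.054 by quantile, 0.030 by loess and 0.13 with the percentile over all miRNAs. That percentile also gave 0.23 and 0.13 for decompression against sham, 0.21 for miR-378* between entrapment and denervation and 0.10 for miR-378 between decompression and denervation. For miR-378* between decompression and denervation, values were -0.047 without scaling, -0.0039 by loess and -1.14 with processed values, and decompression minus entrapment with processed values was -1.16 and -1.08. Further settings brought miR-378* past the threshold, which were quantile scaling after denervation (-1.01) and entrapment (-1.15), an intensity trend after entrapment (-1.04, adjusted p = 0.0439) and only the groups compared after decompression (-0.66, adjusted p = 0.0320). Leaving out denervation 3 did so after entrapment (adjusted p = 0.0219), with a range of -1.11 to -0.92 over arrays left out. Ranges that crossed 0 when an array was left out were -0.64 to 0.0042 for miR-378 and -0.082 to 0.28 for miR-378* between decompression and denervation in soleus, the first without decompression 2 and the second without denervation 3. The tissue-by-injury differences of miR-378 turned without scaling (1.30 for denervation, 1.86 for entrapment and 1.80 for decompression against sham, 0.56 for entrapment against denervation, -0.061 for decompression against entrapment), with the percentile over all miRNAs (0.20, 0.68, 0.89 and 0.48 for the first 4), by median scaling (0.18 for decompression against sham) and by quantile scaling (0.045 for denervation against sham, -0.19 for decompression against denervation). With arrays left out they ranged from -0.23 to 0.10 for denervation against sham, -0.30 to 0.41 for decompression against sham and -0.21 to 0.44 for decompression against denervation. The log2 strand ratio ranged from -0.18 to 0.52 for decompression against sham and from -0.35 to 0.34 for decompression against entrapment. With the replicate block, the numbers in the labels as a term, entrapment against sham was -0.82 for miR-378 in DRGs (adjusted p = 0.00798) and -0.99 for miR-378* in soleus (adjusted p = 0.224), and no call changed, although correlations between same-numbered arrays ran from -0.47 to 0.48 and gave no pairing. The low DRG signal, 24.4 to 63.9 with an error of up to 14.7%, limits miR-378 there, and no level of miR-378* could be given in DRGs.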

Other observations

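Decompression 2 of the soleus arrays stood apart in more than the strand ratio. In the authors' processed table its scanner signals had been divided by 1222, whereas the constants of the other soleus arrays ran from 38.7 to 100. The processed value of miR-378 there was 0.845, beside 41.0 and 55.2 for the other decompression arrays, although its unscaled signal of 1032 was close to that of the sham array at 1110. Its miR-378* signal of 315 lay near those of the other decompression arrays, 333 and 336.

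In the processed table, the DRG columns named entrapment gave 0.272, 0.315 and 0.328 for miR-378 and those named decompression gave 0.313, 0.287 and 0.271, below the sham value of 0.466 and the denervation values of 0.495, 0.493 and 0.444 under either naming.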
